A study of Mus musculus with 18 samples.

Results

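The comparison is that of APP/PS1/FTnKO with APP/PS1 mice, which differ in whether forebrain neurons can make the β-subunit of farnesyltransferase (FT). It rests on 12 of the 18 mice whose frontal cortical RNA was sequenced, 6 of each genotype with 3 females and 3 males, and the members were every mouse to which the labels give either genotype. Mice of both genotypes carried the APP/PS1 transgenes, which include APPswe, a mutant form of the amyloid precursor protein that causes familial Alzheimer's disease, and both were homozygous for a floxed allele of the FT β-subunit gene Fntb. The APP/PS1/FTnKO mice also carried a Cre recombinase transgene driven by the CaMKIIα promoter, which acts after birth in forebrain neurons, so that glia, vessels and neurons without this promoter kept the enzyme in both genotypes. All mice were 9 to 10 months old. 5 WT mice, which had no APP/PS1 transgenes, took part in the fit only to estimate the spread and to give a reference level. The methods of the study describe the WT mice as floxed littermates and the record of the data gives C57BL/6J, so their background is not settled here.

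Farnesyltransferase attaches a farnesyl group, a short lipid made in the mevalonate pathway, to a cysteine near the C-terminus of proteins such as H-Ras, Rheb, nuclear lamins and the DnaJ chaperones. The lipid lets these proteins sit on membranes, from where Ras signals to ERK and Rheb to the kinase mTORC1. Farnesyl diphosphate, the lipid donor, is also the last compound that the prenylation of proteins and the synthesis of cholesterol have in common, since squalene synthase (Fdft1) joins farnesyl units on the way to sterols. Neurons produce their own cholesterol early in life and later take much of it from astrocytes.

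Total counts were 16479413 to 21030935 in APP/PS1/FTnKO and 15925432 to 20703587 in APP/PS1 mice. Levels are given below as normalized CPM, read counts scaled to a common library size, and a gene was called where the adjusted p of edgeR's quasi-likelihood test (FDR) was below 0.05. Xist and Ddx3y matched the labelled sex in all 12 mice. The RNA integrity number (RIN) was 7.6 to 8.7 in APP/PS1/FTnKO and 7.7 to 8.7 in APP/PS1 mice, with medians of 8.6 and 8.2. The male APP/PS1/FTnKO mouse 16974 (RIN 7.6) and the male APP/PS1 mouse 16975 (RIN 7.7) lay apart on the second dimension of a multi-dimensional scaling plot, at -1.12 and -1.41, while the other 15 mice lay between -0.48 and 0.92. The distance between 2 mice was taken as the root mean square of their 500 largest differences in log2(CPM + 0.5). Its median between mice of different genotype but the same sex was 1.45 (n = 18 pairs), against 1.51 between APP/PS1/FTnKO mice (n = 6) and 1.24 between APP/PS1 mice (n = 6) of the same sex, and the ranges overlapped. Over pairs of either sex the medians were 1.55 (n = 36), 1.56 (n = 15) and 1.57 (n = 15).

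Fntb (ENSMUSG00000033373; GRCm38 chromosome 12, 76765589 to 76921412) was lower in APP/PS1/FTnKO mice but not separated from APP/PS1 mice. Its level was 7.84 to 14.7 CPM (median 12.6) in the 6 APP/PS1/FTnKO mice and 14.2 to 32.1 CPM (median 15.8) in the 6 APP/PS1 mice. Only mouse 16974, with 14.7 CPM, lay above any APP/PS1 mouse, and in APP/PS1 mice the upper end was set by the females 19553 (28.7 CPM) and 19554 (32.1 CPM). The difference of the means was -8.36 CPM (two-sided exact permutation test over every way to split the 12 mice into 6 and 6, p = 0.0108), and the log2 fold change was -0.77 (SE 0.26, FDR = 0.251 over all genes, edgeR). The counts cover the whole gene, including exons that Cre leaves in place, in every cell type of the tissue. The RNA therefore does not measure the deleted part. Among the 20 tested genes that lie within 1000000 bases of Fntb, itself included, none was called. Rab15, which lies within Fntb on the other strand, differed by -0.21 in log2 (FDR = 0.196), and Churc1, which overlaps its start, had -0.07 (FDR = 0.813).

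Between the genotypes, 57 of 17414 tested genes were called, which is 0.327% of them. Of these, 32 (0.184%) had a higher level in APP/PS1/FTnKO mice and 25 (0.144%) a lower one. The changes were small: 38 of the 57 changed by less than 0.5 in log2, and the median was 0.41 among the higher and -0.31 among the lower genes. In 44 of the 57 every APP/PS1/FTnKO mouse lay on the same side of all APP/PS1 mice, 25 higher and 19 lower, whereas over all tested genes 0.597% were higher and 0.373% lower without overlap. The called genes were spread over 18 chromosomes, and none of the 581 tested genes of the X chromosome was among them. All 57 had the same sign in females and in males, which their selection on these same mice makes likely. In the annotation, 24 of the 57 share exon bases with another gene, 21 of them with a gene on the other strand. The strand setting of the counting is not given, so their counts may hold reads of the other gene. Over all tested genes the log2 fold change had a median of -0.0016, its 5th and 95th percentiles were -0.31 and 0.34, and 49.5% of genes were above 0.

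The number of calls depended on which mice entered the fit. With only the 12 mice in the fit, 5 genes were called: Cfap46, Col20a1, Kif5b, Amz1 and Ttc9b. With WT mouse 19622, which lay far from the others and is left out of the other values, added to the fit, only Cfap46 and Col20a1 were called, and the common dispersion, a measure of the spread between mice, was 0.04 in place of 0.0171. Fewer genes were called without APP/PS1/FTnKO mouse 16974 (31), 18943 (22), 19394 (20) or 19722 (33) and without APP/PS1 mouse 19619 (34), 19744 (27), 19553 (17) or 19554 (10). The same was seen without WT mouse 19101 (33), 19721 (33), 18944 (34) or 19053 (33). The sign of all 57 genes was the same with each of the 17 mice left out in turn. The choice of these genes on the same mice makes that likely too. Of the 57, 10 were called in all of these fits. Called genes with an FDR near 0.05 were called in few of those fits, such as Map1lc3a and Morc2a in 1 and Cox8a in 2. With RIN as a covariate, all 57 were called among 261 genes, of which 41.0% were higher in place of 56.1%.

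**Figure D1:**
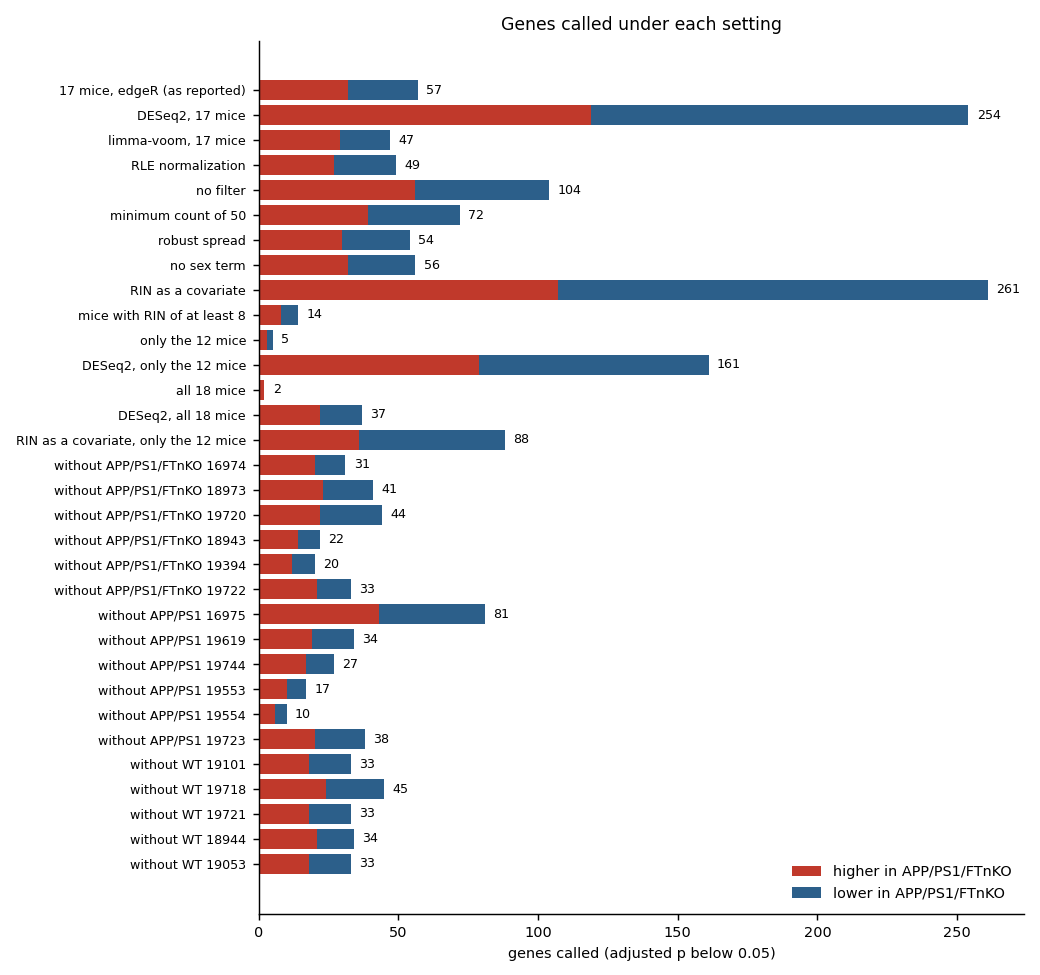
Number of genes called (x axis, FDR below 0.05) in APP/PS1/FTnKO against APP/PS1 mice under each setting and with each mouse left out (y axis), split by direction. The bars run from 2 genes with all 18 mice to 261 with RIN as a covariate, against 57 for the values given in the text.

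**Figure D2:**
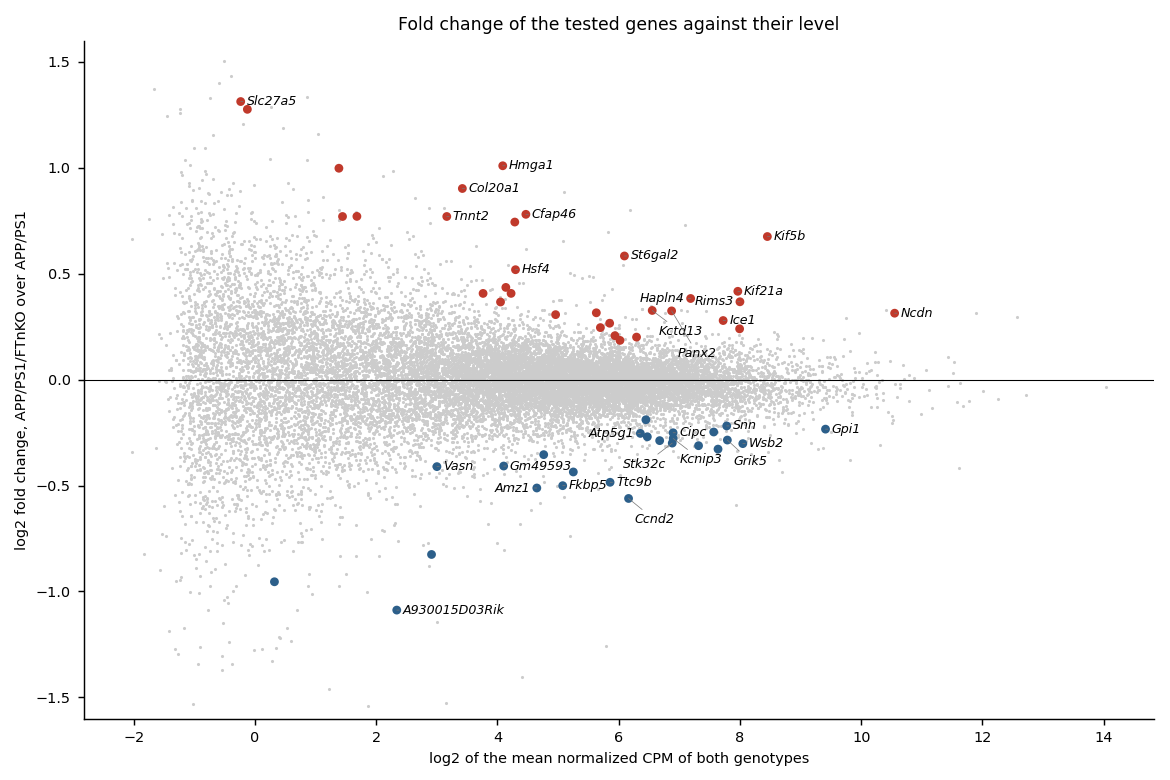
Log2 fold change of each tested gene (y axis) against the log2 of its mean normalized CPM (x axis), with the called genes in red (higher in APP/PS1/FTnKO) and blue (lower). Called genes lie within 1.6 on the log2 scale, and 16 genes beyond that range are not drawn.

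Cfap46 of the ciliary axoneme, the microtubule core of a cilium, and the microtubule motor Kif5b were among the genes with the clearest increase. Called higher were 2 of 38 tested axonemal genes and 2 of 25 kinesins, against 0.184% of all tested genes. Cfap46 (ENSMUSG00000049571; chromosome 7, 139600951 to 139683817), a protein of the axoneme's central apparatus, had 24.5 to 34.5 CPM (median 27.2) in APP/PS1/FTnKO and 14.4 to 19.0 CPM (median 16.0) in APP/PS1 mice. The groups did not overlap, and WT mice, at 15.8 to 20.7 CPM, lay with the APP/PS1 mice. Cfap46 rose by 0.78 in log2 (SE 0.08, FDR = 0.000111, edgeR), and it was called in each of the 17 fits that left out a mouse. Kif5b (chromosome 18, 6201002 to 6242174), the ubiquitous heavy chain of the kinesin that carries vesicles and mitochondria along axons, had 389.7 to 533 CPM (median 413) against 228 to 294 CPM (median 283). Kif5b rose by 0.68 in log2 (SE 0.10, FDR = 0.00669), again without overlap. Its highest value was that of mouse 16974. Kif21a (chromosome 15, 90933276 to 91049948), a kinesin that dampens microtubule growth, had 259.8 to 311 CPM (median 282) against 184 to 242 CPM (median 218) and rose by 0.42 in log2 (SE 0.07, FDR = 0.017). WT mice had 221 to 258 CPM of Kif21a and overlapped the APP/PS1 mice. Dnah1, a dynein heavy chain of the axoneme, rose by 0.44 (FDR = 0.0411) with 16.6 to 23.2 CPM against 11.8 to 17.4 CPM. Here the groups overlapped, as mouse 19720 lay below 3 APP/PS1 mice. Dnah1 was called in 5 of the 17 fits that left out a mouse. Dnah1 shares 551 exon bases with Gm35823 on the other strand, whose log2 fold change was 0.64 (FDR = 0.102).

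The lists of both families, whose members were compiled with results of these data known, held further genes on the higher side. Of 25 kinesins tested, 16 were above 0, the median log2 change was 0.06, and 6 had an unadjusted p below 0.05 on the higher and 0 on the lower side. For comparison, 5.82% of all tested genes had such a p on the higher and 5.69% on the lower side. Kif5a, the neuronal kinesin heavy chain, had 3682 to 5056 CPM against 2855 to 3725 CPM (log2 fold change 0.31, FDR = 0.13), and Kif17, the dendritic motor of NMDA receptor vesicles, differed by 0.48 in log2 (FDR = 0.134). Neither passed the test. Of 38 tested genes of the axoneme and motile cilia, 27 were above 0 with a median of 0.11, and 9 against 0 had an unadjusted p below 0.05. The median was 0.19 without APP/PS1 mouse 19554. Hydin, a giant protein of the central apparatus, lay at 2.06 to 3.08 CPM against 0.999 to 2.04 CPM, without overlap but not called (log2 fold change 0.75, FDR = 0.106). The axoneme list differed between the sexes, with a median of -0.05 in females and 0.29 in males, a difference that was not tested. Several other lists differed in the same direction, among them choroid plexus and ependyma (-0.68 and 0.43) and oligodendrocytes (-0.19 and 0.23). Others, such as immediate early genes (-0.11 and -0.37), differed in the opposite one. RNA of the ependyma and choroid plexus, cells with motile cilia in the ventricles, was near its floor in most mice: the 8 tested markers of these cells summed to 9.87 to 34.8 CPM in APP/PS1/FTnKO and 16.0 to 473 CPM in APP/PS1 mice, and their part in the result was not tested.

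Other called genes with higher levels are known from neurons and their surrounding matrix, while no member of the lists of glutamate synapses, GABA synapses and vesicle release was called higher. Ncdn (chromosome 4, 126743750 to 126753438), which encodes neurochondrin, a negative regulator of CaMKII, had 1462 to 1797 CPM (median 1680.0) in APP/PS1/FTnKO and 1246 to 1455 CPM (median 1320.0) in APP/PS1 mice. The ranges did not overlap, though their edges lay close together. Ncdn rose by 0.31 in log2 (SE 0.05, FDR = 0.00734, edgeR). Panx2 (chromosome 15, 89059734 to 89073567), a neuronal pannexin channel, lay at 124 to 140.4 CPM against 95.3 to 113 CPM and at 100.5 to 107 CPM in WT mice. It rose by 0.32 (SE 0.04, FDR = 0.00426). Hapln4 links hyaluronan to proteoglycans in the nets around fast-spiking neurons, and it rose by 0.38 (SE 0.07, FDR = 0.017), with 146 to 190.2 CPM against 111 to 146 CPM, which met without overlapping. Rims3, a small active zone protein, had 244 to 330.0 CPM against 210.2 to 239.9 CPM (log2 fold change 0.37, FDR = 0.0241). Kctd13, an adaptor of the ubiquitin ligase that degrades RhoA, rose by 0.33 (FDR = 0.017) from a median of 82.9 to 105 CPM.

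Other genes that rose encode extracellular and nuclear proteins. Col20a1 (chromosome 2, 180986535 to 181018363), a collagen that in cortex marks oligodendrocyte precursors, had 10.9 to 17.5 CPM (median 13.9) against 5.72 to 9.13 CPM (median 7.64), without overlap. It rose by 0.90 in log2 (SE 0.13, FDR = 0.00426, edgeR), and was the only gene called on the list of oligodendrocyte precursors, whose 19 tested members had a median of -0.03. St6gal2, a sialyltransferase, had 70.9 to 91.0 CPM against 46.0 to 75.4 CPM (log2 fold change 0.58, FDR = 0.017). Here only APP/PS1 mouse 19744, at 75.4 CPM, reached into the other group. Hmga1 (chromosome 17, 27556497 to 27563674), a chromatin protein that binds AT-rich DNA, had 20.0 to 29.5 CPM (median 21.4) against 8.82 to 19.7 CPM (median 9.99). Mouse 16975 had 19.7 CPM and the other 5 APP/PS1 mice at most 10.4 CPM. Hmga1 rose by 1.01 (SE 0.15, FDR = 0.00669), but it has processed pseudogenes and how reads shared with them were counted is not given. Hsf4, a heat shock factor, rose by 0.52 (SE 0.08, FDR = 0.0126) with 20.3 to 24.9 CPM against 14.2 to 18.6 CPM. Ice1, part of the complex that elongates small nuclear RNAs, rose by 0.28 (FDR = 0.0114). The DNA damage mediator Mdc1 (0.31), the silencing factor Morc2a (0.19), the methyltransferase Smyd5 (0.21) and the zinc finger genes Zmym6 (0.32) and Zfp612 (0.27) were also called higher.

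Among the weakly expressed genes that rose, Slc27a5, a bile acid and fatty acid CoA ligase best known from liver, had 1.03 to 1.44 CPM against 0.294 to 0.683 CPM (log2 fold change 1.31, SE 0.23, FDR = 0.0173, edgeR). Afmid, the formamidase of tryptophan breakdown, had 0.812 to 1.61 CPM against 0.225 to 0.807 CPM (log2 fold change 1.28, SE 0.27, FDR = 0.0485). Both were separated, Afmid by a narrow margin, and Afmid shares 1566 exon bases with Gm20708 on the same strand, so that its level is uncertain. The muscle genes Tnnt2, cardiac troponin T, and Mylk3, a myosin light chain kinase, rose by 0.77 (FDR = 0.017) and 0.998 (FDR = 0.0356). WT mice differed between the pair: Tnnt2 was 5.50 to 7.60 CPM in them, as in APP/PS1 mice (4.78 to 8.38 CPM), while Mylk3 was 2.43 to 4.20 CPM, as in APP/PS1/FTnKO mice (2.63 to 4.28 CPM). Eef1g, a translation elongation factor subunit, rose by 0.24 (FDR = 0.0368). The remaining higher genes (Susd2, Mroh7, Rskr, Gstm7, Ufd1, Rab10os, Gm21092 and Gm4793) had log2 fold changes of 0.20 to 0.77. Rab10os and Gm4793 lie antisense to Rab10 and Nav1, which had log2 fold changes of -0.0014 and 0.02.

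**Figure D3:**
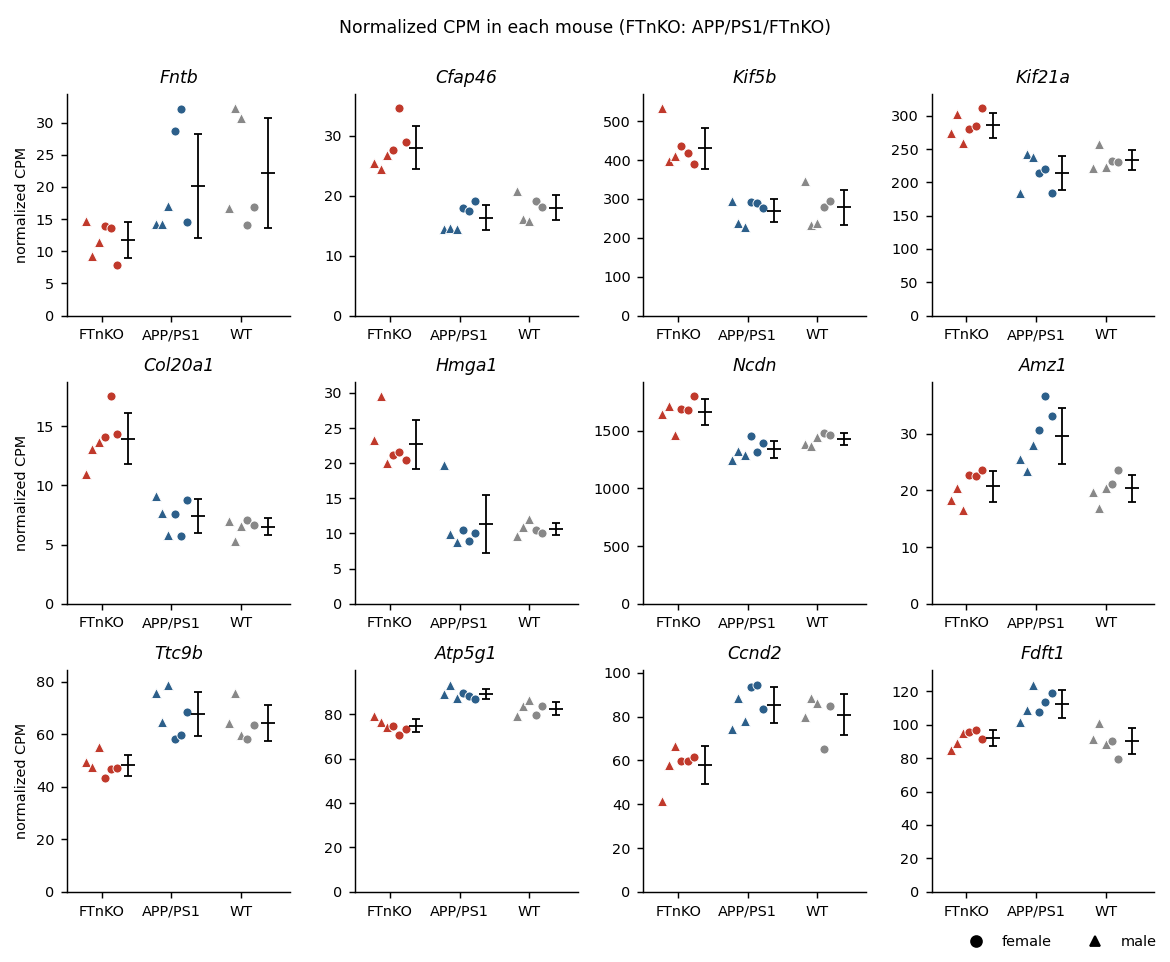
Normalized CPM (y axis, from 0) of 12 genes in each mouse, with circles for females and triangles for males, and bars for the mean and SD of each genotype. Fntb overlaps between APP/PS1/FTnKO (red) and APP/PS1 mice (blue); Amz1 overlaps by a single mouse, and the other 10 genes show no overlap between these genotypes.

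Of all tested genes, 0.144% were called lower. They included 1 of 13 tested genes of the squalene branch of cholesterol synthesis and 1 of 20 of glycolysis. In oxidative phosphorylation they included 1 of 11 of complex IV and 1 of 16 of complex V. Fdft1 (chromosome 14, 63145150 to 63179578), squalene synthase, had 84.6 to 96.5 CPM (median 93.2) in APP/PS1/FTnKO and 101 to 124 CPM (median 111) in APP/PS1 mice, and 79.3 to 101 CPM in WT mice. The genotypes compared did not overlap, and the APP/PS1/FTnKO mice lay within the WT range. Fdft1 fell by 0.29 on the log2 scale (SE 0.06, FDR = 0.0471, edgeR). It shares 774 exon bases at its end with Ctsb on the other strand, a cathepsin that differed by -0.05 in log2 (FDR = 0.821), and was called in 3 of the 17 fits that left out a mouse. Rnf145, a sterol-responsive ubiquitin ligase that acts on Scap and is on none of the lists, fell by 0.27 (FDR = 0.0411) with 71.0 to 86.6 CPM against 84.7 to 104 CPM. Gpi1, the glucose phosphate isomerase of glycolysis, had 613 to 654 CPM against 672 to 777 CPM and fell by 0.23 (FDR = 0.0367). Atp5g1 (chromosome 11, 96068852 to 96075670), a c-ring subunit of ATP synthase, had 70.7 to 79.3 CPM against 86.8 to 93.4 CPM, without overlap. It fell by 0.25 (SE 0.04, FDR = 0.00644). Cox8a of cytochrome c oxidase fell by 0.33 (FDR = 0.0485), with 152 to 205 CPM against 194 to 249.8 CPM. It was called in 2 of the 17 fits that left out a mouse.

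The mevalonate pathway makes the isoprenoid units, and 2 of its 9 tested genes were above 0, and their median log2 change was -0.15, or -0.23 when APP/PS1 mouse 19619 was left out and -0.08 when APP/PS1/FTnKO mouse 19394 was. None was called, and 4 had an unadjusted p below 0.05, all on the lower side. Hmgcs1, the HMG-CoA synthase, had 242 to 276 CPM (median 249) against 268 to 393 CPM (median 296), a log2 difference of -0.28 (SE 0.07, FDR = 0.0986). Mouse 19744 was the highest APP/PS1 mouse. Of the 13 tested enzymes from squalene to cholesterol, 1 (Tm7sf2) was above 0, the median was -0.18, 8 had an unadjusted p below 0.05 on the lower and 1 on the higher side, and Fdft1 was called. Nsdhl, a sterol dehydrogenase encoded on the X chromosome, had 22.8 to 26.0 CPM against 26.6 to 31.5 CPM, without overlap (log2 fold change -0.26, FDR = 0.0738). The log2 fold change was -0.34 for Sqle, squalene epoxidase (FDR = 0.101). For the median member of the squalene branch, the difference from the APP/PS1 mean was -0.31 to -0.09 on the log2 scale in APP/PS1/FTnKO mice and -0.11 to 0.12 in APP/PS1 mice. Within-sex medians were -0.19 in females and -0.26 in males. Called genes numbered 3 in the squalene branch and 2 in the mevalonate pathway with RIN as a covariate, 4 and 2 with DESeq2, and 0 and 0 with only the 12 mice in edgeR.

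In the lists of sterol control and of fatty acid synthesis no gene was called. Srebf2, the transcription factor of sterol synthesis, had 251 to 276 CPM against 278 to 314 CPM, without overlap but not called (log2 fold change -0.15, FDR = 0.218). Stard4, a sterol carrier, had -0.38 (FDR = 0.155). The 15 tested genes of SREBP control and sterol uptake had a median of -0.05, with 5 at an unadjusted p below 0.05, all lower. In fatty acid synthesis, 12 of 17 genes were below 0 with a median of -0.11. Acaca, acetyl-CoA carboxylase, had 66.6 to 83.6 CPM against 84.9 to 91.3 CPM (log2 fold change -0.23, FDR = 0.0567), and Me1, malic enzyme, 43.6 to 53.0 CPM against 53.8 to 64.6 CPM (log2 fold change -0.29, FDR = 0.06). Both were separated and narrowly missed the threshold.

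Promoters are shown for Hmgcs1 and Nsdhl, a mevalonate and a sterol gene with the smallest p of their lists among those with an entry, because sterol genes are known to be switched on by SREBP-2 together with the CCAAT-binding factor NF-Y. The bases before the RefSeq start (GRCm38.p6) are given 5′ to 3′ on the gene's own strand. Capitals mark TCACNCCAC, the core of a sterol regulatory element, and CCAAT or its reverse complement ATTGG.
Hmgcs1 (chr13:119690101-119690350, + strand): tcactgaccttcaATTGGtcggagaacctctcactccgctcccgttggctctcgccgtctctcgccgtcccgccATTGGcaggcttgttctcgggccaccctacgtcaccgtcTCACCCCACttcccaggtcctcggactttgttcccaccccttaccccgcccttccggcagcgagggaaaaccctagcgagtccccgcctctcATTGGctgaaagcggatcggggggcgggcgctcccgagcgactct
Nsdhl (chrX:72918271-72918520, + strand): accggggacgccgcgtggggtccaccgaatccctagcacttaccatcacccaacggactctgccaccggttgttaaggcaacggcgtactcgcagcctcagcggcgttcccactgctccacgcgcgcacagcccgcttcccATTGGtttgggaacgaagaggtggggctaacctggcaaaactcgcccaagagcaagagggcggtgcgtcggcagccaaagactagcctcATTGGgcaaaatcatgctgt
Hmgcs1 held 3 CCAAT boxes and 1 sterol element within 250 bases, and Nsdhl held 2 CCAAT boxes. Searched on both strands, CCAAT occurred in all 10 squalene genes with an entry and in 6 of 7 mevalonate genes, against 40.0% of the 12340 tested genes with one. TCACNCCAC occurred in 1 of the 7 mevalonate genes, Hmgcs1, in 0 of the 10 squalene genes, in 0 of 11 genes of SREBP control and sterol uptake and in 0 of 14 of fatty acid synthesis, against 1.18% of all. Among called genes with an entry, TCACNCCAC occurred in 2 of 23 higher ones (Dnah1 and Gstm7) and in 0 of 18 lower ones. CCAAT occurred in 52.2% of the higher and 44.4% of the lower ones. These matches describe the sequences and were not tested against the expression values.

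In glycolysis and oxidative phosphorylation most genes were below 0, and Gpi1, Cox8a and Atp5g1 were the ones called. Of 20 tested glycolytic genes, 18 were below 0, the median log2 change was -0.12, and 9 had an unadjusted p below 0.05 on the lower and 0 on the higher side. Hk1, the brain hexokinase, had 309 to 346 CPM against 349 to 409 CPM, without overlap (log2 fold change -0.18, FDR = 0.124), and Aldoa 1233 to 1497 CPM against 1420.0 to 1631 CPM (log2 fold change -0.17, FDR = 0.222). Among the respiratory complexes encoded in the nucleus, the median was -0.07 for complex I (33 of 37 genes below 0), -0.12 for complex III (10 of 10), -0.15 for complex IV (10 of 11) and -0.11 for complex V (16 of 16). For the 4 genes of complex II it was -0.02. An unadjusted p below 0.05 on the lower side was found for 12, 7, 8 and 9 genes of complexes I, III, IV and V, and on the higher side for 1 gene of complex IV. DESeq2 called 1, 2, 4 and 4 genes of complexes I, III, IV and V, all lower. Uqcr11, a small subunit of complex III, had 62.7 to 72.5 CPM against 72.0 to 89.7 CPM (log2 fold change -0.27, FDR = 0.0546). Cox7a2 had 82.9 to 91.2 CPM against 91.4 to 108 CPM, without overlap (log2 fold change -0.20, FDR = 0.0586). For the median gene of complex V, the difference from the APP/PS1 mean was -0.16 to -0.08 in APP/PS1/FTnKO and -0.06 to 0.08 in APP/PS1 mice, so the groups did not overlap. The 13 tested protein genes of the mitochondrial genome had a median of -0.09 with overlapping mice, which was -0.0062 without mouse 16975, -0.16 without 16974 and 0.03 with RIN as a covariate. Over all genes, those in the shortest of 4 equal bins of transcript length had a median of -0.0009 and those in the longest -0.0048, and with RIN as a covariate 0.02 and -0.015.

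For cytosolic ribosomal proteins most genes were above 0, and none passed the test. Of the 47 large and 32 small subunit genes tested, 37 and 27 were above 0, with medians of 0.06 and 0.09, and 5 and 4 had an unadjusted p below 0.05 on the higher and 0 on the lower side. With RIN as a covariate 4 and 2 were called higher. Rpl5, which also stabilizes p53, had 214 to 264 CPM against 194 to 242 CPM (log2 fold change 0.16, FDR = 0.272). Without mouse 16974 the median of the large subunit was 0.02, and without 16975 it was 0.12 for the large and 0.13 for the small subunit. Without APP/PS1 mouse 19619 the small subunit had 0.04. The summed CPM of the large subunit, 6492 to 8110 in APP/PS1/FTnKO and 5917 to 7792 in APP/PS1 mice, overlapped widely. Ribosomal protein genes have many processed pseudogenes, and the handling of reads shared with them is not given.

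**Figure D4:**
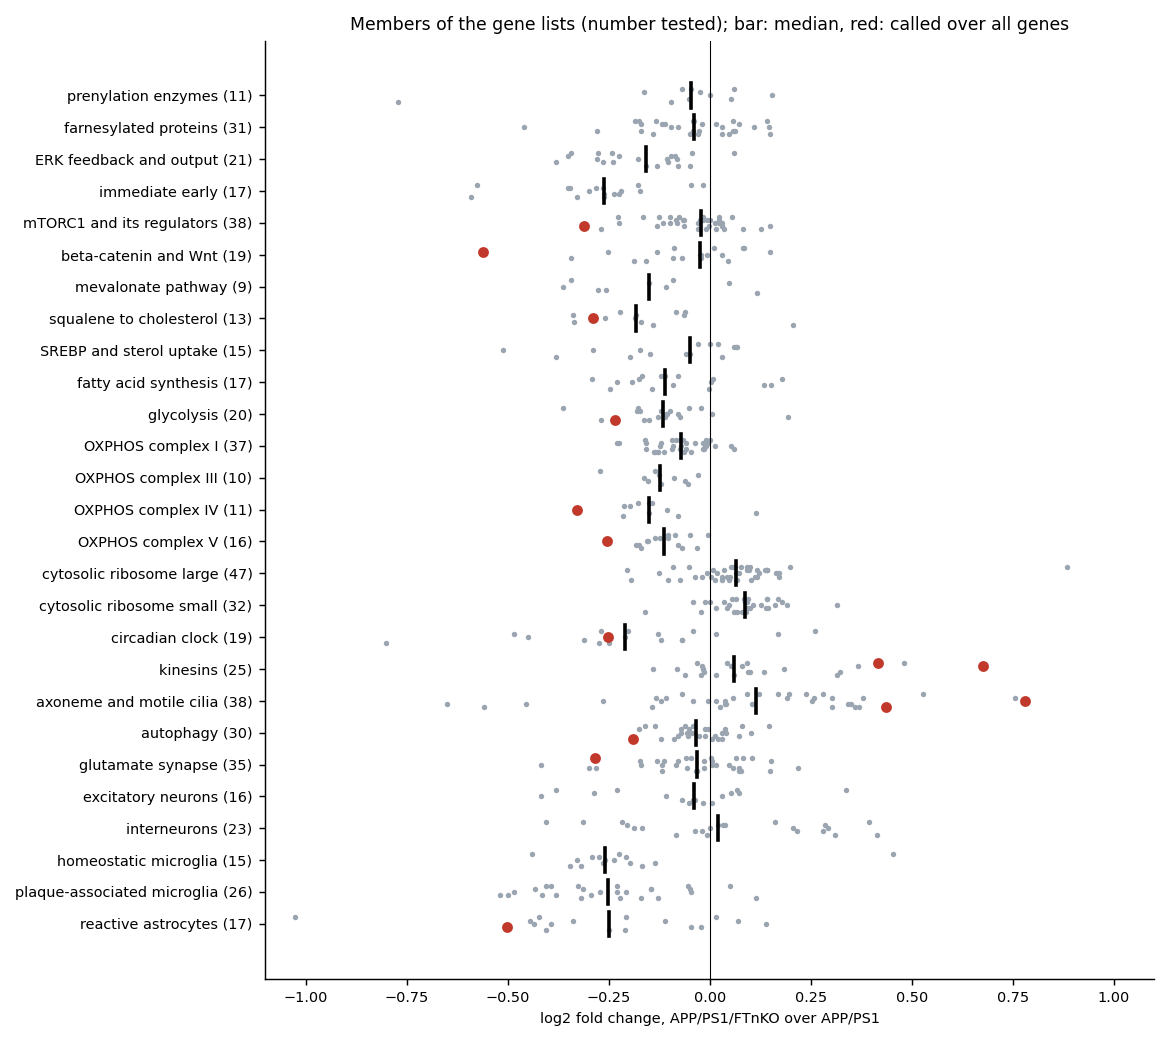
Log2 fold change (x axis) of every tested member of 27 gene lists (y axis, number tested in brackets), with a black bar at each list's median and called genes in red. Medians lie left of 0 for the squalene branch (-0.18), complexes III, IV and V and immediate early genes (-0.26), and right of 0 for ribosomal proteins, kinesins (0.06) and axonemal genes (0.11).

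The lists of prenylating enzymes and of FT substrates held no called gene, and that of mTORC1 held 1. Over all tested genes 0.327% were called, so lists of this size would hold few in any case. Among the 11 tested subunits of prenylating enzymes and their processing factors, the median was -0.05. Fnta, the α-subunit that farnesyltransferase shares with the enzyme that attaches geranylgeranyl groups, had 39.6 to 46.6 CPM against 38.2 to 42.2 CPM (log2 fold change 0.06, FDR = 0.679). Rabggta, the α-subunit of the enzyme that attaches them to Rab proteins, had 0.15 (FDR = 0.275). Of 31 tested genes of farnesylated proteins, 12 were above 0 with a median of -0.04, and 6 had an unadjusted p below 0.05 on the lower and 1 on the higher side. None was called, and 2 were called lower with RIN as a covariate. Hras had 93.4 to 102 CPM against 95.2 to 112 CPM (log2 fold change -0.11, FDR = 0.284), Uchl1 had -0.18 (FDR = 0.222) and the chaperone Dnaja2 0.15 (FDR = 0.277). In the 38 tested genes of mTORC1 and its regulators, whose median was -0.02, Rragd was called. Rragd, a Rag GTPase that recruits mTORC1 to lysosomes and a target of the TFE transcription factors, had 126 to 154 CPM against 154 to 200.3 CPM, which met without overlapping, and fell by 0.31 (SE 0.06, FDR = 0.0392, edgeR). Map1lc3a, the LC3A protein of autophagosomes, fell by 0.19 (FDR = 0.0471), with 77.2 to 86.6 CPM against 88.9 to 96.7 CPM, while the 30 tested autophagy genes had a median of -0.03. Map1lc3a was called in 1 of the 17 fits that left out a mouse.

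Genes that report ERK signalling and neuronal activity lay lower without passing the test. Of 21 tested genes of ERK feedback and output, 20 were below 0, the median log2 change was -0.16, and 6 had an unadjusted p below 0.05, all lower. The median was -0.07 in mice with RIN of at least 8 and -0.21 with RIN as a covariate. With that covariate 2 genes were called lower, and with DESeq2 1. Dusp7, an ERK phosphatase, had 34.9 to 57.1 CPM against 55.5 to 68.9 CPM (log2 fold change -0.38, SE 0.09, FDR = 0.0801). All 17 immediate early genes were below 0, with a median of -0.26, and 7 had an unadjusted p below 0.05. Egr1 belongs to both lists. Arc, a synaptic immediate early gene, had 99.4 to 324 CPM (median 197) against 231 to 339 CPM (median 309.5), a log2 difference of -0.59 (FDR = 0.265). The APP/PS1/FTnKO mice differed widely in these genes: the difference of the median member from the APP/PS1 mean was -0.73 in mouse 19394, -0.44 in 16974 and -0.43 in 19720, but 0.15 in 18973. In WT mice Arc had 312 to 411 CPM and Egr1 291 to 466 CPM (194 to 343 CPM in APP/PS1/FTnKO and 233 to 401 CPM in APP/PS1 mice).

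**Figure D5:**
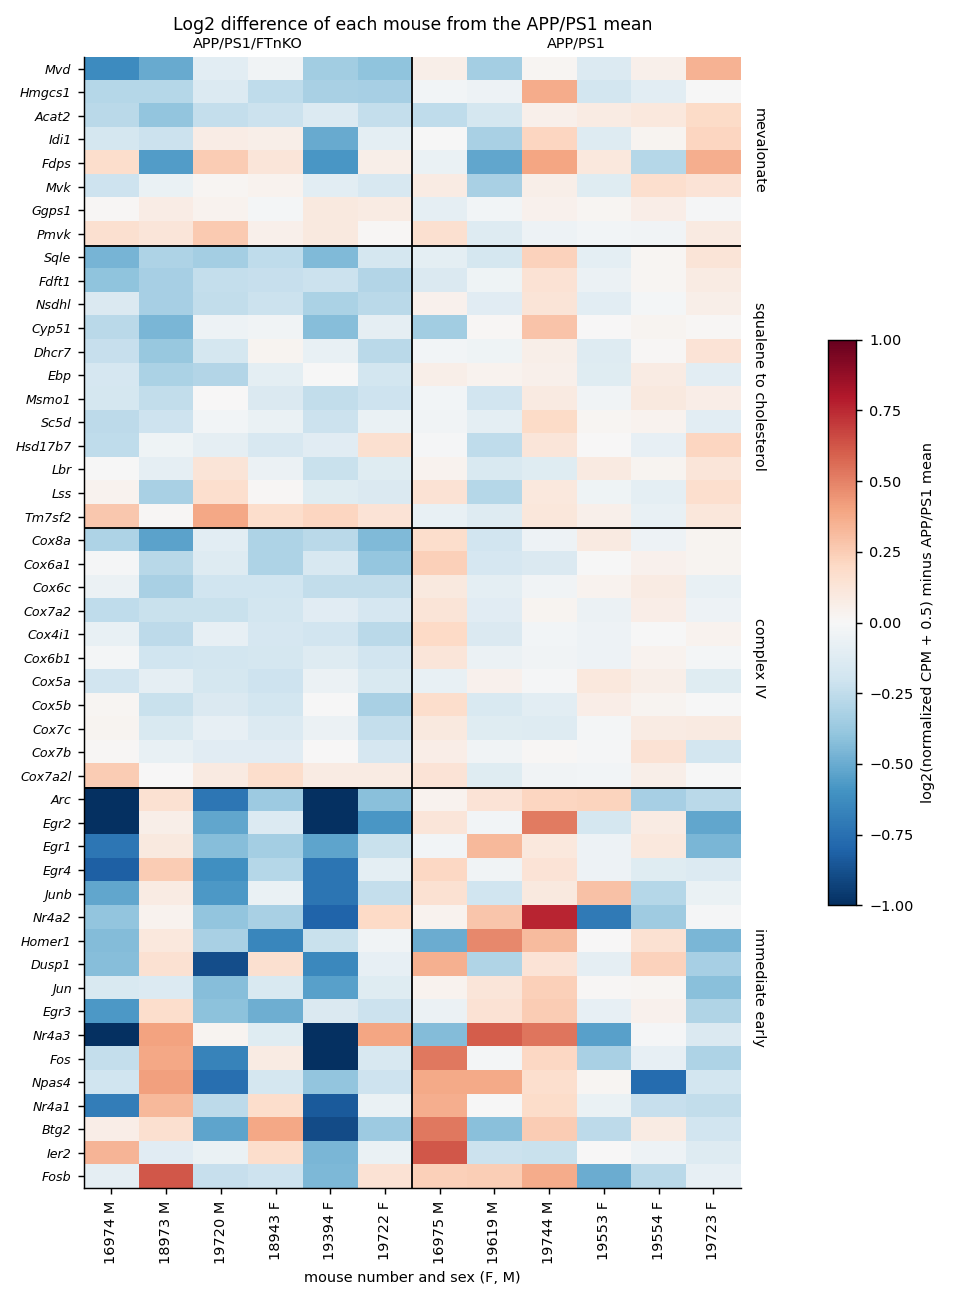
Log2 difference of each of the 12 mice (x axis, number and sex) from the APP/PS1 mean for genes (y axis) of the mevalonate pathway, the squalene branch, complex IV and the immediate early list, computed on CPM with 0.5 added and drawn from -1 (blue) to 1 (red). The squalene genes are mostly blue in every APP/PS1/FTnKO mouse, whereas the immediate early list has its lowest medians in mice 19394, 16974 and 19720 and is mostly red in 18973.

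Of 19 tested genes of the β-catenin pathway and 19 clock genes, 1 each was called lower, Ccnd2 and Cipc. Over all tested genes the share was 0.144%, and both lists were compiled with results of these data known. Ccnd2 (chromosome 6, 127125162 to 127152193), cyclin D2, had 41.4 to 66.8 CPM (median 59.7) against 74.2 to 94.6 CPM (median 86.0), without overlap and with the lowest value in mouse 16974. It fell by 0.56 on the log2 scale (SE 0.10, FDR = 0.0175, edgeR). Ccnd1 had 22.7 to 36.1 CPM against 33.1 to 45.4 CPM (log2 fold change -0.34, FDR = 0.213). Ctnnb1, β-catenin, had 391 to 433 CPM against 444 to 489.8 CPM, without overlap but not called (log2 fold change -0.16, FDR = 0.0801), and the 19 tested genes of its pathway had a median of -0.02. Cipc, which binds CLOCK and inhibits it, had 103 to 115 CPM against 122 to 141 CPM, without overlap, and fell by 0.25 (SE 0.04, FDR = 0.017). Of the 19 clock genes tested, 16 were below 0 with a median of -0.21 (-0.13 in mice with RIN of at least 8), and 9 had an unadjusted p below 0.05 on the lower and 1 on the higher side. Ciart, a repressor of the clock, had the largest of these differences, with 8.13 to 19.1 CPM against 10.8 to 34.0 CPM (log2 fold change -0.80, FDR = 0.267).

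The Ciart promoter is shown because it holds 3 copies of the E-box CACGTG, the element bound by CLOCK and BMAL1, which capitals mark. It is read from the RefSeq start on the gene's strand (GRCm38.p6), with 23 of its 250 bases left out that lie within the annotated gene.
Ciart (chr3:95882252-95882478, - strand): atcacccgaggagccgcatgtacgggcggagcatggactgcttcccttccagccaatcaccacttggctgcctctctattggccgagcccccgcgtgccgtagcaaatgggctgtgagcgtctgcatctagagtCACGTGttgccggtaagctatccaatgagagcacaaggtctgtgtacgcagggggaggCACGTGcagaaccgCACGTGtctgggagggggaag
CACGTG, which reads the same on both strands, occurred in 6 of the 17 clock genes with an entry (35.3%) and in 9.45% of all tested genes with one.

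The leading lower genes outside these pathways had varied roles. Amz1 (chromosome 5, 140724127 to 140761439), an archaelysin-family metalloprotease, had 16.6 to 23.6 CPM (median 21.5) against 23.3 to 36.5 CPM (median 29.3), groups that overlapped at a single APP/PS1 mouse, and WT mice had 16.9 to 23.6 CPM. It fell by 0.51 on the log2 scale (SE 0.07, FDR = 0.00426, edgeR). Ttc9b (chromosome 7, 27653915 to 27657346), a tetratricopeptide protein, had 43.4 to 55.1 CPM against 58.1 to 79.0 CPM, and fell by 0.48 (SE 0.07, FDR = 0.00426). Unlike Amz1, its WT level, 58.1 to 75.7 CPM, was that of the APP/PS1 mice. Map3k10, which overlaps Ttc9b on the other strand by 612 exon bases, differed by -0.20 in log2 (FDR = 0.0567). Wsb2, a substrate adaptor of a ubiquitin ligase, fell by 0.30 (FDR = 0.00669). Grik5, a kainate receptor subunit, had 184 to 221 CPM against 223 to 256 CPM and fell by 0.29 (SE 0.05, FDR = 0.017). The calcium-binding proteins Kcnip3, a modulator of A-type potassium channels that also represses transcription, and Pcp4, which binds calmodulin, fell by 0.28 (FDR = 0.0352) and 0.35 (FDR = 0.0411). Cdk5r2, the p39 activator of Cdk5, fell by 0.25 (FDR = 0.0471), with 151 to 187 CPM against 192 to 228 CPM. It was called in 1 of the 17 fits that left out a mouse. Fkbp5, a glucocorticoid-induced chaperone of the glucocorticoid receptor, had 24.9 to 31.7 CPM against 34.0 to 49.6 CPM, without overlap, and fell by 0.50 (SE 0.10, FDR = 0.0356).

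Further genes that fell encode secreted and membrane proteins. Vasn, a membrane protein that binds TGF-β, had 5.90 to 7.54 CPM against 8.52 to 9.93 CPM and 9.64 to 10.7 CPM in WT mice, and fell by 0.41 (SE 0.07, FDR = 0.0173, edgeR). Its level in APP/PS1/FTnKO mice lay farther from WT than that of APP/PS1 mice. Adamts13, the protease of von Willebrand factor, had 0.538 to 1.08 CPM against 1.52 to 1.86 CPM, and WT mice had 0.670 to 1.25 CPM. It fell by 0.95 (SE 0.19, FDR = 0.0411), to levels that overlapped those of WT mice. Adamts13 was called in 1 of the 17 fits that left out a mouse. The non-coding gene A930015D03Rik fell by 1.09 (SE 0.20, FDR = 0.0223), with 1.43 to 3.87 CPM against 4.04 to 8.25 CPM, but it shares 1003 exon bases with H2-T22 on the other strand (log2 fold change 0.45, FDR = 0.179). Stk32c (-0.30), Snn (-0.22), Epop (-0.44) and Gm49593 (-0.41) were called lower too. Levels in WT mice are set beside these values for reference, without a test, since a comparison with WT would share the same APP/PS1 or APP/PS1/FTnKO mice.

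The transgenes, the amyloid pathway and markers of cell types were compared to see what the tissue samples held. App had 2117 to 3640.0 CPM against 2362 to 3095 CPM (log2 fold change 0.03, FDR = 0.931, edgeR). The 20 tested genes of amyloid processing and secretases had a median of -0.04, and none was called. Markers of the labelled tissue were present: Camk2a had at least 2297 CPM and Slc17a7, the cortical vesicular glutamate transporter, at least 633 CPM in each of the 12 mice, and of 14 markers of cerebellum and hindbrain, 7 were too low to be tested, among them Gabra6 and Barhl1 at no more than 0.186 CPM. The 7 tested, which include Calb1 and Pcp4, summed to 163 to 196 CPM against 169 to 226 CPM. Camk2a had 2297 to 3656 CPM (median 2419) in APP/PS1/FTnKO and 2782 to 4352 CPM (median 3600.0) in APP/PS1 mice (log2 fold change -0.42, FDR = 0.196), and Slc17a7 633 to 965 CPM against 797 to 1389 CPM (log2 fold change -0.38, FDR = 0.177). The 16 tested markers of excitatory neurons had a median of -0.04, with 3 at an unadjusted p below 0.05, all lower, and summed to 4465 to 6241 CPM against 5331 to 7456 CPM. Their median turned to 0.0092 without APP/PS1 mouse 19619, and was -0.10 without 16975 and also with RIN as a covariate. The 23 interneuron markers had a median of 0.02, with 4 higher and 2 lower at such a p. In bulk tissue, fewer cells of a type and less RNA per cell cannot be told apart.

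The lists of microglia and of reactive astrocytes had medians below 0, and the mice of the genotypes overlapped. The 15 tested markers of homeostatic microglia moved by a median of -0.26 in log2, with 14 below 0 and 6 at an unadjusted p below 0.05, all lower. The median was -0.16 in mice with RIN of at least 8. Their sum was 447 to 715 CPM in APP/PS1/FTnKO and 588 to 939 CPM in APP/PS1 mice. Tmem119 had 19.3 to 29.1 CPM against 24.2 to 33.0 CPM (log2 fold change -0.34, FDR = 0.18). The 26 genes of plaque-associated microglia had a median of -0.25, with 2 at such a p, and the median with RIN as a covariate was -0.08. It was -0.38 without APP/PS1/FTnKO mouse 16974 and -0.08 without APP/PS1 mouse 16975, the mice with the lowest RIN of their genotypes. Tyrobp, an adaptor of Trem2, had 17.8 to 50.3 CPM against 29.7 to 84.1 CPM and 10.9 to 14.3 CPM in WT mice (log2 fold change -0.52, FDR = 0.364), and Ctsd, a lysosomal protease, had 199.6 to 431 CPM against 268 to 547 CPM (log2 fold change -0.38, FDR = 0.312). The spread within each genotype was wide: the difference of the median plaque gene from the APP/PS1 mean was -1.05 in APP/PS1/FTnKO mouse 18973 and -0.86 in APP/PS1 mouse 19744, both males, while the highest mice of these genotypes reached 0.05 and 0.39. Among 17 reactive astrocyte genes the median was -0.25, and -0.07 with RIN as a covariate. It ran from -0.45 without mouse 16974 to -0.0076 without mouse 16975. Fkbp5 was the only one called. RIN differed between the genotypes as given above, and its part in these results was not tested. The general markers of astrocytes (median 0.01, 20 genes), oligodendrocytes (0.01, 19 genes) and endothelium and pericytes (-0.01, 25 genes) had medians near that of all genes, and with a mouse left out these 3 and the interneuron median took either sign.

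Whether the difference between the genotypes depended on sex was tested with an interaction term. No gene was called by edgeR, and 578 of the 17414 genes had an unadjusted p below 0.05, against 1 gene (Amd-ps4) called by DESeq2. The smallest p was that of Ankrd66, with 0.581 to 1.02 CPM in male APP/PS1/FTnKO against 0.0562 to 0.186 CPM in male APP/PS1 mice and 0.191 to 0.428 CPM against 0.485 to 0.807 CPM in females (difference of the log2 fold changes, males minus females, 3.63, FDR = 0.94). Medag, an adipogenic factor, had 8.46 to 10.2 CPM against 3.44 to 4.10 CPM in females and 4.84 to 6.28 CPM against 5.12 to 8.01 CPM in males (difference -1.44). 9330159F19Rik had a difference of -0.56 and 4833415N18Rik of 1.24. The FDR was 0.94 for 4833415N18Rik and 1 for 9330159F19Rik and Medag.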

How the data were processed

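Frontal cortical RNA was extracted, and libraries were prepared with a stranded mRNA kit and sequenced with reads of 150 bases. Per the labels and methods, the authors trimmed reads with Trimmomatic 0.33, checked them with FastQC 0.11.7, aligned them with HISAT2 2.1.0 and ran featureCounts. The deposited table holds their raw counts of 55487 Ensembl genes in 18 mice, without normalization. For featureCounts, its version, annotation, strand setting and treatment of multi-mapping reads were not given in the sources used here. Both mm10 and mm9 are named in the labels. Positions were taken from GENCODE vM21 (GRCm38), which held 99.9% of the tested genes, and promoters from RefSeq (GRCm38.p6), with an entry for 12340 tested genes.

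A quasi-likelihood model with sex as an additive term was fitted in edgeR 4.0.16 (R 4.3.3) after TMM scaling, on genes kept by filterByExpr at 10 counts, to 17 mice of 3 genotypes, without WT mouse 19622, taken as the WT outlier that the study left out. p-values were adjusted by Benjamini-Hochberg over all 17414 tested genes, with a threshold of 0.05. Log2 fold changes and their SE come from this fit, and levels are TMM-normalized CPM. Each mouse is 1 animal. Depths of 15925432 to 21030935 counts per mouse leave counting error small except in weakly expressed genes. The 49 gene lists (978 genes, 997 of 1019 entries tested) were described by counts and medians. The members and lists were chosen with earlier results of these data known. The genes named are in each direction the 15 called genes of lowest p, called list members, up to 4 members with the smallest p of 27 lists, the 5 genes with the smallest interaction p, Fntb and its neighbours, the 5 largest folds in each direction among genes with a mean of at least 10 CPM, and genes that check the labels. The remaining called genes, Fnta, Ctsb, Map3k10, Rab10, Nav1, H2-T22, Gm20708 and Tdg-ps2 were named after their values were seen, as were the cerebellar genes. A few genes that these rules name are not reported here. Calls were recomputed with DESeq2 1.42.0, with voom in limma 3.58.1, with RLE normalization, other filters, a robust spread, no sex term, RIN as a covariate, mice with RIN of at least 8, only the 12 mice, all 18 mice and each mouse left out. Leaving out each WT mouse and RIN as a covariate in only the 12 mice were chosen once the data had been seen. In simulated data for this comparison over 17414 genes, edgeR recovered 86% of log2 fold changes of 1 and 56% of 0.5 with 4.05% of calls false, and DESeq2 87% and 61% with 16.85% false. For the sex by genotype term edgeR recovered 53% and 15%. Each tool had its own simulated counts, drawn from the spread that edgeR estimated. Apart from the planted fold changes, they held no effect of sex, RIN or single outlying mice. They therefore do not give the error rates of the calls above. All columns of the deposited table were assigned to a mouse.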

Additional observations from a re-analysis of the deposited data

Results flagged for a closer look

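In 262 groups of 6 mice (131 named genes in each genotype), a mouse stood apart from the other 5 in 19 by Dixon's test at the 95% level, or 7.25%, where chance gives about 5%. That 5% does not strictly hold here, since the genes share mice and some were named for large folds that rest on single mice. Mouse 16974, with the lowest RIN, was the flagged APP/PS1/FTnKO mouse for Kif5b at 533.2 CPM (others 389.7 to 435.5), Ccnd2 at 41.4 (57.8 to 66.8), Cox6b1 at 131.6 (116.1 to 121.4), Ttr at 7.718 (0 to 1.69) and Gm13394 at 173.9 (0.484 to 0.962). Mouse 18973 was flagged for Hmga1 at 29.49 CPM (others 19.98 to 23.3), A930015D03Rik at 1.426 (3.14 to 3.87), Uqcr10 at 54.64 (60.4 to 63.1), Crh at 5.646 (3.20 to 4.07) and the reactive astrocyte gene Aspg at 7.984 (14.3 to 17.9). Mouse 19720 was flagged for Ice1 at 253.2 CPM (others 224 to 233) and Dlgap3 at 326.6 (277 to 292), and mouse 19394 for Ctnnb1 at 390.8 (417 to 433) and Gm15772 at 105.7 (2.92 to 4.93).

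Among APP/PS1 mice, 19744 was the highest for the sterol gene Hmgcs1 at 393.4 CPM (others 268 to 304) and for St6gal2 at 75.36 (46.0 to 55.6). Mouse 16975 was flagged for Hmga1 at 19.74 CPM (others 8.82 to 10.4), 19619 for Hspb1 at 10.18 (4.76 to 6.11) and 19554 for Ttr at 420.4 (0 to 19.4).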

How the results depend on the processing

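The 57 calls became 254 with DESeq2, 104 without a filter, 261 with RIN as a covariate, 161 with DESeq2 on only the 12 mice and 88 with RIN as a covariate in only the 12 mice, and 14 in mice with RIN of at least 8, 5 with only the 12 mice, 2 with all 18 mice and 37 with DESeq2 on all 18. With limma-voom, RLE normalization, a minimum count of 50, a robust spread and no sex term they were 47, 49, 72, 54 and 56. The share of calls that were higher was 56.1%, against 46.9% with DESeq2 and 41.0% and 40.9% with RIN as a covariate in 17 and 12 mice. Leaving out an APP/PS1/FTnKO mouse gave 20 (19394) to 44 calls, an APP/PS1 mouse 10 (19554) to 81 (16975), and a WT mouse 33 to 45. No gene was called for the sex by genotype term except Amd-ps4 with DESeq2 (1 gene, adjusted p = 0.0132) and Tdg-ps2 in edgeR without APP/PS1 mouse 19554 (1 gene, FDR = 0.0133), and 292 to 1401 genes had an unadjusted p below 0.05. With each APP/PS1/FTnKO or APP/PS1 mouse left out the number called ran from 0 to 1 (no WT mouse was left out for this term). The cause of these differences was not tested. No paired analysis was possible because the labels give no replicate numbers that tie mice of different genotype, and the numbers used here follow accession order only.

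Among 4054 values of the 131 named genes, 3644 kept direction and call, 305 lost the call, 97 gained it and 8 turned: App (0.03) to -0.014 in mice with RIN of at least 8 and to -0.018 and -0.007 without APP/PS1/FTnKO mouse 19722 and APP/PS1 mouse 16975, Prnp (0.05) to -0.001 without 19394, Ttr (-4.32) to 0.47 with RIN as a covariate and 0.529 with DESeq2 on all 18 mice, and Gm13394 (4.12) to -0.13 in mice with RIN of at least 8 and -0.289 without 16974. Most of the named genes were not called and had no call to lose, so the number kept does not measure how firm the calls were. With each mouse left out, the log2 change ran from -0.018 to 0.105 for App, -0.001 to 0.084 for Prnp, -7.408 to -0.384 for Ttr and -0.289 to 4.527 for Gm13394. Of 1519 list medians under the alternatives, 1518 stayed within the spread between mice. That spread was wide in some lists, so this count does not show that the medians were stable. For plaque-associated microglia the SD among APP/PS1 mice was 0.47, and the median moved from -0.25 to -0.08 with RIN as a covariate. The smallest called change was 0.19 in log2 (Morc2a), and the SE of called genes was 0.037 or more.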

Other observations

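Among the 5 largest log2 fold changes in each direction at a mean of at least 10 CPM, those of Hmga1 and Col20a1 were called. Several of the others rested on 1 or a few mice. Ttr, the thyroid hormone carrier of the choroid plexus, had 0 to 7.72 CPM in APP/PS1/FTnKO and 0 to 420.4 CPM in APP/PS1 mice (log2 fold change -4.32, FDR = 0.426), the highest value being that of mouse 19554. Gm13394 had 174 CPM in APP/PS1/FTnKO mouse 16974 and at most 1.49 CPM in the other 11 mice (log2 fold change 4.12, FDR = 0.251). Gm15772 had 106 CPM in APP/PS1/FTnKO mouse 19394 and at most 4.93 CPM in the other 11 (log2 fold change 1.76, FDR = 0.541), while WT mice reached 81.0 CPM. Atp6v0c-ps2, a pseudogene of a proton pump subunit, fell into a low and a high level: APP/PS1/FTnKO mice 19720, 18943 and 19722 had at most 0.588 CPM, the other APP/PS1/FTnKO mice at least 60.2 CPM, and all 6 APP/PS1 mice 64.9 to 87.0 CPM. WT mice also spanned both levels, from 0.769 to 85.7 CPM. Rpl21 ranged from 8.61 to 97.4 CPM in APP/PS1/FTnKO and from 7.12 to 62.0 CPM in APP/PS1 mice (log2 fold change 0.88, FDR = 0.663), and Gm28437 from 8.77 to 14.4 CPM and from 6.92 to 71.9 CPM (log2 fold change -1.40, FDR = 0.303).

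Further gene groups are given by their counts and medians. Of 32 tested lysosomal genes, 29 were below 0, the median log2 change was -0.14, and 7 had an unadjusted p below 0.05 on the lower and 1 on the higher side. The median was -0.25 for 17 complement and Fc receptor genes and -0.09 for 22 interferon genes, but -0.0192 and 0.05 without APP/PS1 mouse 16975. It was -0.09 for 11 genes of sterol turnover and efflux, -0.02 for 19 ATF4 targets and 24 heat shock chaperones, 0.00 for 22 genes of GABA synapses, -0.03 for 35 of glutamate synapses, -0.08 for 29 of vesicle release and -0.05 for 47 potassium channels. With a mouse left out, the median ran from -0.16 to -0.03 for sterol turnover, -0.10 to -0.02 for vesicle release and -0.09 to -0.01 for potassium channels. Markers of regions beside the cortex and of blood varied between mice: the 6 tested olfactory bulb markers had a median of -0.75 (-0.38 without mouse 16975) and summed to 23.1 to 93.0 CPM against 54.5 to 170.7 CPM, the 12 of striatum had -0.08 with sums of 873 to 1937 CPM against 933 to 2386 CPM, the 7 of thalamus 0.01, the 7 of cerebellum and hindbrain -0.08 (0.04 without mouse 19554) and the 8 of choroid plexus and ependyma -0.20, which was -0.44 without 16974, -0.06 without 19554 and 0.23 with RIN as a covariate. The 6 blood markers had a median of 0.35, which ran from -0.19 to 0.80 with a mouse left out. With a mouse left out, the medians of ATF4 targets, chaperones, both kinds of synapse, striatum and thalamus took either sign. Apart from Grik5, Kcnip3 and Pcp4, no member of these lists was called.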
